A study of Mus musculus with 5 samples.

Results

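The genes described here were the DNA-binding TCF/LEF factors of the Wnt/β-catenin pathway and the target genes through which that pathway regulates itself, measured in mouse thyroid tumor cell lines labelled with intact or deleted Ctnnb1, the gene of β-catenin. They were chosen by symbol and make 10 of the 17923 genes listed in at least 1 library: the factors Tcf7 (NCBI Gene 21414), Lef1 (NCBI Gene 16842), Tcf7l1 (NCBI Gene 21415) and Tcf7l2 (NCBI Gene 21416), and the feedback targets Axin2 (NCBI Gene 12006), Nkd1 (NCBI Gene 93960), Lgr5 (NCBI Gene 14160), Rnf43 (NCBI Gene 207742), Znrf3 (NCBI Gene 407821) and Sp5 (NCBI Gene 64406). RNA was sequenced from cell lines derived from BRAFV600E-driven mouse thyroid tumors, and all 5 libraries carry that oncogene; the promoter or Cre line behind either allele is not given in the sources used here. The 2 BVE-Ctnnb1wt libraries came from a single line at passage 20, replicate 1 without thyroid-stimulating hormone (TSH) and replicate 2 with it. The 3 BVE-Ctnnb1null libraries, labelled with deletion of Ctnnb1, came from differently named lines: BVECTN_4 at passage 8 without TSH (replicate 1), BVECTN_4A at passage 11 (replicate 2) and BVECTN_5 at passage 7 (replicate 3), the labels giving no TSH status for replicates 2 and 3. The protocol gives other passage numbers, about 25 for the wt and 20 for the null lines, and a growth medium with TSH. Line, passage and genotype therefore cannot be told apart, and since nothing in the labels says that the libraries came from separate cultures, p-values measure only the spread between these libraries.

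TCF/LEF proteins sit on the regulatory DNA of Wnt target genes. Without β-catenin they recruit TLE corepressors, and with it they recruit BCL9, Pygopus and histone acetyltransferases and activate transcription. Among the targets are brakes on the pathway itself: Axin2 is a scaffold of the complex that degrades β-catenin, Nkd1 binds Dishevelled, and Rnf43 and Znrf3 are ubiquitin ligases that remove Frizzled receptors from the cell surface. R-spondins, bound by Lgr4, Lgr5 or Lgr6, in turn remove Rnf43 and Znrf3. In most tissues Axin2 and Nkd1 RNA serve as readouts of β-catenin signaling, and Lef1 and Tcf7 can be targets themselves.

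Estimated read counts totalled 30432737 and 30713079 in wt replicates 1 and 2, and 29929677, 29360002 and 29415980 in null replicates 1, 2 and 3. At this depth 3 counts correspond to about 0.10 CPM (counts scaled to the library total) in each library. All other CPM values are TMM-scaled, that is, on library sizes set by the bulk of the genes. Levels are given as FPKM, which is scaled to transcript length and library total and listed by the authors from 0.01 upward. A gene not listed in a library is written as 0. Of the 10 genes, 8 were listed in wt replicate 1, 8 in wt replicate 2, and 8, 7 and 9 in null replicates 1, 2 and 3. Differences between the groups are log2 fold changes of estimated counts (null over wt) with their standard errors. They were tested over 13240 genes, 8 of the 10 among them, with edgeR's quasi-likelihood test, and p-values were adjusted by the Benjamini-Hochberg method.

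The gene labelled as deleted was examined before its partners. Ctnnb1 RNA was at 59.3 and 73.8 FPKM in the wt libraries and at 125, 196 and 118 FPKM in null replicates 1, 2 and 3. On this scale the groups did not overlap, while on TMM-scaled CPM they did, and the log2 fold change of 0.55 ± 0.44 (SE, n = 2 and 3) did not pass edgeR's quasi-likelihood test (adjusted p = 0.517). With an offset for transcript length, described below, it was 0.17. Both listed Ctnnb1 transcripts contain the same 14 coding exons and 781 codons, so the loss of some exons would not be seen in these values. The RNA level of the whole gene is therefore no check of the deletion, and the libraries are called null below because they are labelled so. Jup, encoding plakoglobin, a relative of β-catenin that also binds TCF factors and cadherins, was at 4.28 and 6.71 FPKM in the wt and 139, 22.3 and 14.6 FPKM in the null libraries. The groups did not overlap, with a log2 fold change of 2.88 ± 1.15 (SE; unadjusted p = 0.0427, adjusted p = 0.256, edgeR). Without null replicate 1 it was 1.05 (unadjusted p = 0.072), and with the length offset 2.14 (unadjusted p = 0.11).

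Most of the factors were higher in the null libraries, and the feedback targets varied. Lef1, Tcf7l1 and Tcf7l2 were higher in every null library than in both wt libraries. Among the feedback targets, Axin2 was lower in every null library, Znrf3 was higher in every one, and Nkd1 and Rnf43 ranged from 0 or near 0 to above both wt libraries. No gene of the 10 passed an adjusted p of 0.05 in edgeR's quasi-likelihood test, and neither did any other gene (0.0% of 13240). At an unadjusted p under 0.05, edgeR placed 3 of the 8 tested genes (Lef1, Tcf7l1 and Tcf7l2) higher and 0 lower, against 12.4% higher and 6.07% lower among all genes tested. Lef1, Tcf7l1 and Rnf43, at 9 counts or fewer in both wt libraries, passed the filter on low counts only through the null libraries, so that the count of higher genes was in part set by the filter. In numbers these were 1646 higher and 804 lower genes, and without TMM factors 2950 and 276. DESeq2, run as an alternative, passed 1113 higher and 487 lower genes at an adjusted p of 0.05, including the same 3 of the 10. On TMM-scaled CPM all null libraries were above both wt libraries for 4 of the 8 (Lef1, Tcf7l1, Tcf7l2 and Znrf3) against 22.6% of all genes, and below them for 1 (Axin2) against 17.3%. Since Lef1 and Tcf7l1 are among these 4, this count too was in part set by the filter, and nothing is read from its distance to the share of all genes.

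**Figure D1:**
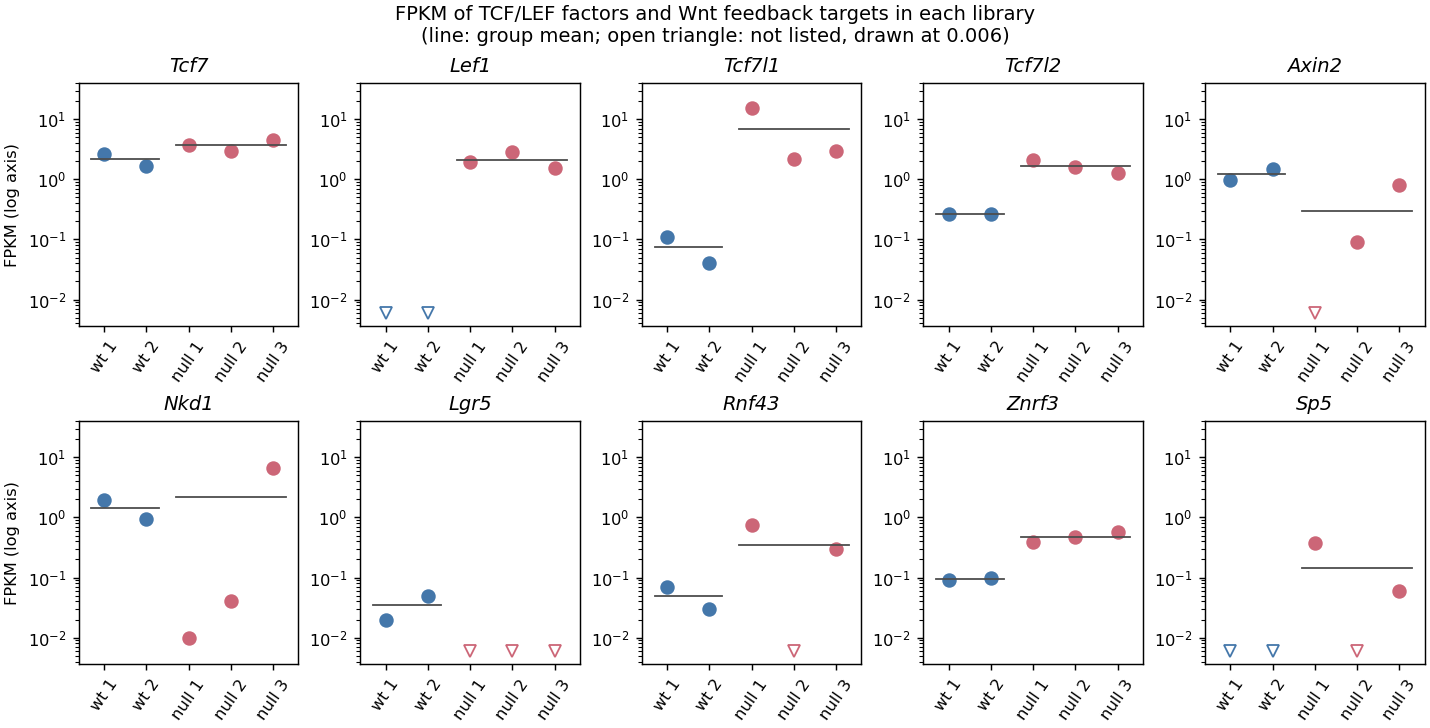
FPKM of the 10 genes in each library, on a log axis shared by all panels. Each point is a library (blue, wt; red, null), lines are group means, and open triangles are libraries in which the gene was not listed. Lef1 is unlisted in both wt libraries and between 1.54 and 2.87 FPKM in the null libraries, whereas Nkd1 runs from 0.01 to 6.56 FPKM within the null group.

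Tcf7, which encodes TCF-1, best known from T cells, was the most abundant factor of the wt libraries at 2.63 and 1.67 FPKM. The null libraries held 3.68, 2.92 and 4.45 FPKM, all above the wt libraries on this scale but not on TMM-scaled CPM, where the groups overlapped. The log2 fold change of 0.22 ± 0.61 (SE) lay close to the median of all genes, 0.29 (adjusted p = 0.867, edgeR). Of the T-cell and other leukocyte markers, Ptprc, Cd3e, Cd3g and Cd4 were at 0 in all 5 libraries, Cd2 reached 0.03 FPKM and Cd8a 0.08 FPKM. Cd79a was at 0.77 and 0.59 FPKM in the wt and 0.18, 0.03 and 0.03 FPKM in the null libraries, and Cd68 at 6.09 and 14.2 FPKM in the wt and 59.8, 1.00 and 39.9 FPKM in the null libraries. Lck was listed in all of them, at 15.1 and 5.70 FPKM in the wt and 0.74, 2.27 and 1.92 FPKM in the null libraries, and the part of these markers in the level of Tcf7 was not tested.

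Lef1 was not detected in either wt library (0 and 0 counts) and was at 1.94, 2.87 and 1.54 FPKM in null replicates 1, 2 and 3, from 215, 269 and 141 counts. Against a floor of 3 counts in each wt library, mean TMM-scaled CPM was at least 48.2-fold higher in the null libraries. Taken singly, the bound was 53.0-fold for null replicate 1, 60.0-fold for replicate 2 and 31.6-fold for replicate 3. Of the 8 genes tested it had the smallest unadjusted p, 0.000406 (adjusted p = 0.18, edgeR). In the order of FPKM null replicate 2 was highest and replicate 3 lowest, a range within which these lines differed by less than 2-fold.

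Tcf7l1, encoding TCF-3, mostly a repressor of Wnt targets, was at 0.11 and 0.04 FPKM in the wt libraries, from 9 and 3 counts. The null libraries held 15.5, 2.14 and 2.92 FPKM, so that replicate 1 stood well above the other null libraries and all 3 above the wt. Relative to the wt mean these levels were 207-fold, 28.5-fold and 38.9-fold higher. The log2 fold change was 6.11 ± 1.40 (SE; unadjusted p = 0.00369, adjusted p = 0.18, edgeR). Without null replicate 1 it was 4.50, and without wt replicates 1 and 2 in turn it was 6.87 and 5.48. In null replicate 1 Tcf7l1 replaced Tcf7 as the most abundant of the 4 factors.

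Tcf7l2, encoding TCF-4, the main partner of β-catenin in gut epithelium, was at 0.27 FPKM in both wt libraries. It was at 2.11, 1.60 and 1.29 FPKM in the null libraries, a narrow range above the wt level. The null levels were 7.81-fold, 5.93-fold and 4.78-fold above the wt mean, and the log2 fold change was 2.05 ± 0.74 (SE; unadjusted p = 0.0283, adjusted p = 0.23, edgeR). Summed over the 4 factors, FPKM came to 3.01 and 1.98 in wt replicates 1 and 2, against 23.2, 9.53 and 10.2 in null replicates 1 to 3. Their median log2 fold change was 4.08, or 3.82 with Lef1 set to its lower bound, and the median over all genes tested was 0.29. Lef1 and Tcf7l1 passed the filter on low counts only through the null libraries. The factors' median was thus in part set by the filter, and nothing is read from its distance to that of all genes. Without null replicate 1 it was 3.12. With at least 10 counts in every library, which kept 2 factors, it was 1.16. With limma on log2(FPKM + 1), an alternative, it was 1.34.

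The null libraries differed from each other in the forms of these factors. The authors' counts are given per RefSeq transcript, and where transcripts share exons the division among them is an estimate. Lef1 of null replicate 1 was assigned wholly (100.0%) to the full-length form of 397 codons. In null replicates 2 and 3 that form took 53.7% and 42.9%, and a form of 331 codons took 35.5% and 40.9%. By the GENCODE annotation of GRCm38, the 331-codon transcript starts 2326 bases downstream, lacks the 207-base coding exon at the beginning of the gene, and begins its protein 69 codons later. LEF1 lacking its amino-terminal end is known as a form that cannot bind β-catenin. A further form of 384 codons, which lacks exons of 84 and 32 bases, took 0.0%, 10.8% and 16.2%.

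Tcf7l1 was assigned in the wt libraries entirely to the form of 585 codons, from 9 and 3 counts. A form of 599 codons, which has an added 42-base exon, took 28.4%, 13.6% and 0.0% in null replicates 1, 2 and 3. With so few wt counts of Tcf7l1, a form at these shares could go unlisted there. For Tcf7l2 the wt reads went to forms of 442 and 435 codons, and the 598-codon form, with the long carboxy-terminal end, was listed only in null replicates 1 and 3, at 54.5% and 35.7%. A short Tcf7l2 form of 299 codons, beginning 161 codons into the longest protein, took 4.3% and 13.1% in null replicates 1 and 2. With 34 Tcf7l2 counts in each wt library, a form at 4.3% could go unlisted there.

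**Figure D2:**
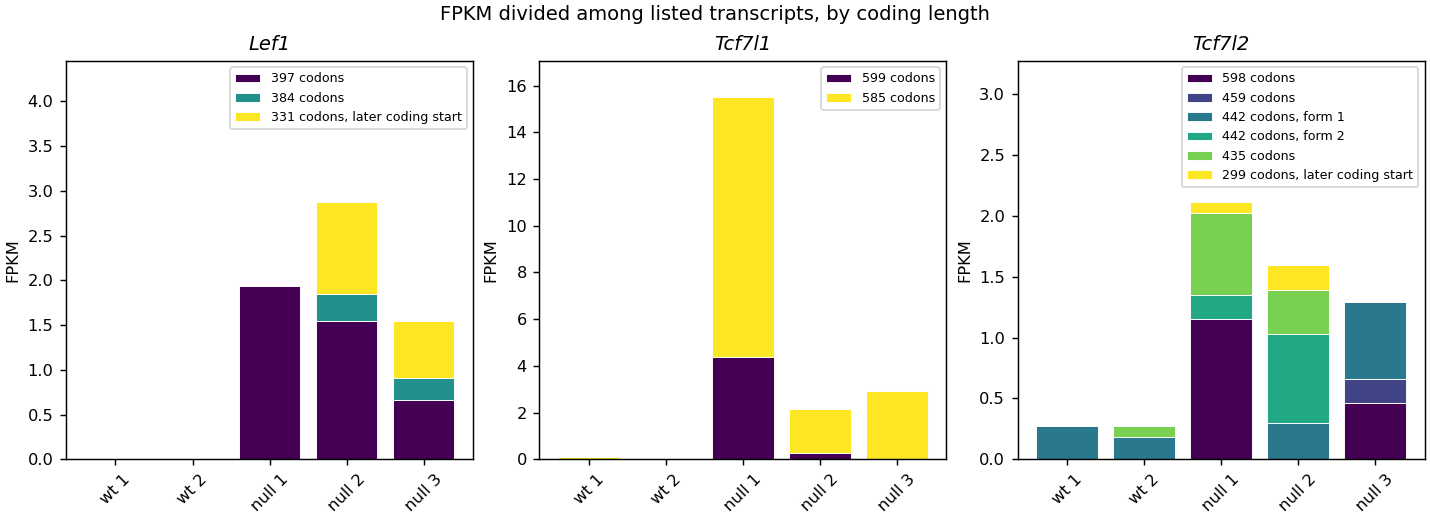
FPKM of Lef1, Tcf7l1 and Tcf7l2 in each library, stacked by listed transcript and coloured by coding length in codons; axes differ between panels. The 331-codon Lef1 form, with its later coding start, appears in null replicates 2 and 3 and not in replicate 1.

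Promoter sequence is shown for 3 genes: Lef1 at the start of the 331-codon form that only null replicates 2 and 3 listed, Axin2 as a common readout of the pathway, and Sp5 as a target at 0 in both wt libraries. Each line gives the 250 bases before the RefSeq start on GRCm38.p6, 5′ to 3′ on the plus strand, with TCF/LEF motifs on either strand in capitals. The motif letters were CTTTGAA (in 4.46% of all mouse promoters of this length), CTTTGAT (in 3.21%), CTTTGTA (in 3.2%) and CTTTGTT (in 5.03%), which differ only in their last letters. These are Lef1 at chr3:131112541-131112790, Axin2 at chr11:108920099-108920348 and Sp5 at chr2:70474673-70474922.
Lef1: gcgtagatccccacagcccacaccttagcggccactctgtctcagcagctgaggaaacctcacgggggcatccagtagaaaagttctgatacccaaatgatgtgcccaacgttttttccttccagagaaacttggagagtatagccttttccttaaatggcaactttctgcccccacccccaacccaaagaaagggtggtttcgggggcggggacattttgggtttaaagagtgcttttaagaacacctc
Axin2: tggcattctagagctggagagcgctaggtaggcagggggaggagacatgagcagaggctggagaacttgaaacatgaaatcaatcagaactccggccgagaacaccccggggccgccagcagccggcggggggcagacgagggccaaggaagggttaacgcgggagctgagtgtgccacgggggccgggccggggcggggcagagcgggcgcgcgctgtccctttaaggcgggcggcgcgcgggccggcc
Sp5: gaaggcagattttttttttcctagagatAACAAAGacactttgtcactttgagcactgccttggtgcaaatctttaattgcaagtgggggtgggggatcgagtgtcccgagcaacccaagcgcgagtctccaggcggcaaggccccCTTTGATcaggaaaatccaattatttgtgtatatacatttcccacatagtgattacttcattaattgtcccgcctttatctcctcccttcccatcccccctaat
The Sp5 window holds a minus-strand match to CTTTGTT that begins 222 bases before the start and a plus-strand CTTTGAT at 104 bases. The Lef1 and Axin2 windows hold none of these letters, which says nothing of sites elsewhere. Of 14 promoters matched to 8 of the 10 genes, 3 hold at least 1 match (Sp5, an internal Lef1 start and an internal Tcf7l2 start), against 14.84% of 32851 mouse promoters of the same length.

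Axin2 was at 0.97 and 1.48 FPKM in the wt libraries, from 129 and 198 counts. In null replicate 1 it was not detected (0 counts), in replicate 2 it was at 0.09 FPKM from 12 counts, and in replicate 3 at 0.81 FPKM from 103 counts. All 3 lay below both wt libraries, but on FPKM replicate 3 was 1.51-fold under the wt mean where replicate 2 was 13.6-fold under it. On TMM-scaled CPM replicate 3 lay further below, at 2.88 against 5.04 and 8.77 in the wt libraries. The log2 fold change was -2.68 ± 1.68 (SE; unadjusted p = 0.157, adjusted p = 0.418, edgeR). Without null replicate 3 it was -5.33, with an unadjusted p of 0.0188 and an adjusted p of 0.211.

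Nkd1 divided the null libraries more sharply still. It was at 1.98 and 0.93 FPKM in the wt libraries, at 0.01 and 0.04 FPKM in null replicates 1 and 2 (1 and 5 counts), and at 6.56 FPKM in null replicate 3 (845 counts). Replicate 3 was thus 4.51-fold above the wt mean on FPKM while the other null libraries were at or near the limit of detection. On TMM-scaled CPM the distance was smaller, with 10.3 and 5.58 in the wt libraries and 23.6 in replicate 3. The log2 fold change was -0.01 ± 2.10 (SE; adjusted p = 0.999, edgeR). Its sign turned with the scaling, to 0.59 without TMM factors, a setting that moved the median of all genes from 0.29 to 0.87. Without null replicate 3 it was -6.49 (unadjusted p = 0.00155, adjusted p = 0.196, edgeR). The transcript assigned also differed: the 471-codon form carried all Nkd1 reads of the wt libraries and of null replicate 3, and the few reads of the others were assigned to a 367-codon form.

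Rnf43, which removes Frizzled receptors, was at 0.07 and 0.03 FPKM in the wt libraries and at 0.75, 0 and 0.30 FPKM in null replicates 1, 2 and 3. The groups overlapped because null replicate 2 had 0 counts where replicate 1 had 99. The log2 fold change was 2.36 ± 1.94 (SE, adjusted p = 0.528, edgeR), and without null replicate 2 it was 2.85 (unadjusted p = 0.0292, adjusted p = 0.2, edgeR). With the replicate number as a block it was 0.41 (unadjusted p = 0.904, edgeR), and with the length offset 1.85. Without null replicate 1 or 3 Rnf43 did not pass the filter on low counts. Its relative Znrf3 was at 0.09 and 0.10 FPKM in the wt libraries and at 0.39, 0.47 and 0.57 FPKM in the null libraries, with no overlap. The log2 fold change of Znrf3 was 1.74 ± 0.82 (SE; unadjusted p = 0.0714, adjusted p = 0.3, edgeR).

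Lgr5, an R-spondin receptor and stem cell marker, and Sp5, a repressor of the Sp1 family, were under the filter on low counts and were not tested. Lgr5 was at 0.02 and 0.05 FPKM in the wt libraries, from 2.30 and 7.53 estimated counts, and at 0 in all 3 null libraries, where up to 3 counts would allow a level that overlaps wt replicate 1. Sp5 was at 0 in the wt libraries and at 0.38, 0 and 0.06 FPKM in the null libraries, from 24, 0 and 4 counts. Neither gene exceeded 0.5 FPKM in any library. Summed over the 6 feedback targets, FPKM came to 3.13 and 2.59 in wt replicates 1 and 2, against 1.53, 0.60 and 8.30 in null replicates 1 to 3, and most of the last value was Nkd1. The median log2 fold change of the 4 tested was 0.87, and without null replicate 3 it was -5.33 over the 3 that passed the filter. With the length offset the median of the 4 was 0.074.

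Since each null library carries a line name of its own, each was also set against both wt libraries at 2-fold on FPKM, a description with no test. Of 6 genes with at least 0.5 FPKM in 2 libraries, null replicate 1 had 3 above (Lef1, Tcf7l1 and Tcf7l2; 30.8% of 11888 genes) and 2 below (Axin2 and Nkd1; 10.0%). Null replicate 2 had the same 3 above (33.8%) and the same 2 below (8.61%). Null replicate 3 had 4 above, the 3 factors and Nkd1 (35.2%), and 0 below (7.2%). The 3 factors were under 0.5 FPKM in both wt libraries and entered only through the null libraries, so their place above was largely set by that limit and nothing is read from these counts against the shares of all genes. Rnf43 and Znrf3 did not enter. In the wt line, the library with TSH had 0 of the 6 at 2-fold above the library without it (5.37% of genes) and 2 at 2-fold below, Tcf7l1 at 2.75-fold and Nkd1 at 2.13-fold (12.3%). On TMM-scaled CPM Nkd1 was at 10.3 without and 5.58 with TSH, which is under 2-fold. With 1 library on each side and 3 counts of Tcf7l1, neither difference has a replicate check.

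Transcript length moved with the comparison across the whole transcriptome. When the 13240 genes were divided by length into 4 classes of equal size, the median log2 fold change was -0.40 in the shortest (up to 1786 bases), 0.02 and 0.45 in the intermediate classes, and 1.13 in the longest (over 4176 bases). Unadjusted p was under 0.05 and higher for 2.8% of the shortest and 28.6% of the longest genes. Each null library showed the trend: relative to the wt mean, the longest class had a median of 0.89, 1.15 and 0.84 on log2 CPM in null replicates 1, 2 and 3. The 10 most abundant genes took 14.27% and 14.96% of counts in wt replicates 1 and 2, against 6.93%, 8.0% and 7.92% in null replicates 1 to 3. Axin2, Nkd1, Rnf43 and Znrf3 all belong to the longest class, so that Znrf3 exceeded its class median by less than its standard error and Axin2 lay below it by more than its distance from 0. Tcf7 and Tcf7l1 belong to the next-to-shortest class, whose median was near 0, and Lef1 and Tcf7l2 to the class above it.

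An edgeR fit with an offset for length was added after this was seen. It placed 2 of the 8 tested genes higher at an unadjusted p under 0.05, against 7.25% of all genes, and 0 lower, against 5.73%. Those 2 were Lef1 (unadjusted p = 0.000444) and Tcf7l1 (log2 fold change 6.04, unadjusted p = 0.004). Both passed the filter on low counts only through the null libraries, so nothing is read from this count against the share of all genes. Under the same fit Tcf7l2 was at 1.54 (unadjusted p = 0.072), Znrf3 at 0.70 (unadjusted p = 0.401) and Axin2 at -3.27 (unadjusted p = 0.103). The adjusted p of these 5 genes was between 0.3 and 0.72. RNA quality values were not analysed here, and whether the trend with length came from the RNA, the libraries or the cells was not tested.

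**Figure D3:**
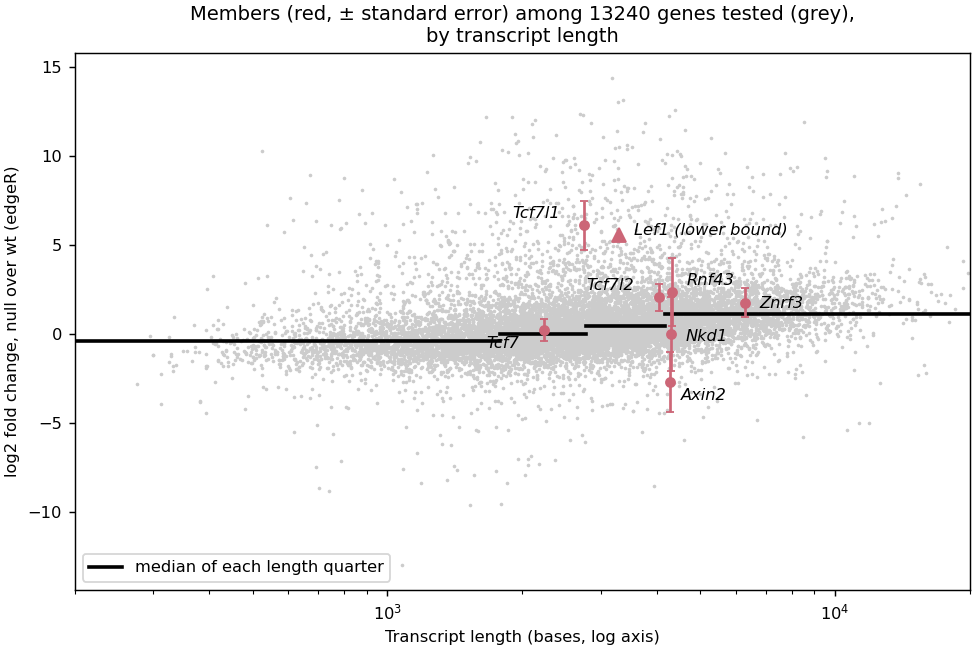
Log2 fold change (null over wt, edgeR) of all 13240 genes tested (grey) against transcript length in bases on a log axis, with the 8 tested genes in red (± SE) and the median of each length class as a black bar. Lef1 is drawn at its lower bound. The class medians climb from -0.40 to 1.13, while Tcf7l1 and Lef1 lie far above theirs and Axin2 lies below its own.

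Other parts of the pathway were followed through lists chosen by function. The complex that degrades β-catenin (13 genes, all tested) had 2 genes at an unadjusted p under 0.05 and higher and 0 lower, and a median log2 fold change of 1.06. Over all genes 12.4% were higher in this way, and in the longest class, which holds 8 of the 13, 28.6%. Those 2 were the tankyrases, which mark AXIN proteins for degradation. Tnks2 was at 3.67 and 2.42 FPKM in the wt and 22.5, 26.7 and 32.8 FPKM in the null libraries, and its log2 fold change was 2.59 (adjusted p = 0.18, edgeR), and Tnks had a log2 fold change of 1.82 (adjusted p = 0.191, edgeR). Median length in this list was 6337 bases, and under the length offset its median turned to -0.20, with Tnks2 at 1.52 and Tnks at 0.74 (adjusted p = 0.501, edgeR). With that offset 2 of the 13 were higher at an unadjusted p under 0.05 (7.25% of all genes), and Tnks was not among them.

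TCF coactivators and corepressors (20 genes, all tested) had 5 at an unadjusted p under 0.05 and higher and 0 lower (12.4% and 6.07% of all genes), with a median of 0.78, and 11 of the 20 belong to the longest class, where 28.6% of genes were higher. Pygo1, named only for its counts, is among these 5 and was at 0 counts in both wt libraries. It passed the filter on low counts only through the null libraries, so that the count was in part set by the filter. Ep300, a histone acetyltransferase, was at 0.17 and 0.31 FPKM in the wt and 3.25, 3.31 and 2.01 FPKM in the null ones, giving a log2 fold change of 2.95 (adjusted p = 0.18, edgeR). Bcl9, which links β-catenin to Pygopus, had a log2 fold change of 1.92 (adjusted p = 0.195, edgeR). With the length offset 2 of the 20 were under that p and higher (7.25% of all genes), the median was 0.14, and Ep300 and Bcl9 were at 1.46 and 0.90. Bcl9 (adjusted p = 0.51, edgeR) was not among those 2. Tle5, a short TLE protein that lacks the repressor's carboxy-terminal domain, was the most abundant gene of this list in every library, at 302 and 258 FPKM in the wt and 903, 455 and 317 FPKM in the null libraries.

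R-spondins, Lgr4, Lgr6 and the Wnt coreceptors Lrp5 and Lrp6 (8 genes, 5 tested) had 3 genes higher and 1 lower at an unadjusted p under 0.05, against 12.4% and 6.07% of all genes, with a median of 2.17. In the longest class, which holds 3 of the 5, 28.6% of genes were higher. Lgr6, at 6 and 7 counts in the wt libraries, passed the filter on low counts only through the null libraries. Rspo4, at 0, 0 and 1 counts in the null libraries, passed it only through the wt. Both counts were thus in part set by the filter. Leaving out wt replicate 1 gave a median of 4.73 and leaving out wt replicate 2 one of 5.15, with all 8 genes then passing the filter on low counts. With the length offset 1 was higher (7.25% of all genes) and 1 lower (5.73%), and the median was 0.86. Lgr6 was at 0.05 and 0.06 FPKM in the wt and 23.9, 6.78 and 0.63 FPKM in the null ones, giving a log2 fold change of 6.96 (adjusted p = 0.19, edgeR), or 5.32 without null replicate 1. Its relative Lgr5 was at 0 in all 3 null libraries. Lgr4 was at 0.10 and 0.16 FPKM in the wt and 1.42, 0.54 and 3.87 FPKM in the null ones, giving a log2 fold change of 3.28 (adjusted p = 0.212, edgeR), or 2.30 without null replicate 3 and 2.54 with the length offset. Lrp6 had a log2 fold change of 2.17 (adjusted p = 0.187, edgeR), or 0.64 with the length offset. The ligands differed by library, and they are named after their values were seen. Rspo4 was at 0.74 and 0.50 FPKM in the wt libraries and at 0, 0 and 0.01 FPKM in the null libraries. Rspo2 was listed in null replicate 3 alone, at 4.15 FPKM (413 counts), and so was Rspo1, at 1.22 FPKM.

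Among 22 other Wnt/β-catenin target genes, 15 were tested, 4 were higher and 0 lower at an unadjusted p under 0.05, against 12.4% and 6.07% of all genes and 28.6% higher in the longest class, which holds 7 of the 15. The 4 were Cd44, Id2, Nkd2 and Sp8, the last named only to complete this count. Nkd2 (0 and 0 wt counts) and Sp8 (0 and 1) passed the filter on low counts only through the null libraries. The count of higher genes was thus in part set by the filter. The median log2 fold change was 0.61. With the length offset 2 were higher (7.25% of all genes) and 0 lower (5.73%), and the median was 0.09. Nkd2, the relative of Nkd1, was at 0 in both wt libraries and at 0.35, 0.01 and 5.98 FPKM in null replicates 1, 2 and 3. Its mean CPM was at least 45.6-fold higher in the null libraries, a value set by replicate 3. Notum, a secreted enzyme that inactivates Wnt ligands, and Tnfrsf19, both named after their values were seen, also separated replicate 3 from the other null libraries. Notum was at 0.42 and 0.70 FPKM in the wt and 0.03, 0.02 and 2.26 FPKM in the null libraries, and Tnfrsf19 at 0.28 and 0.11 FPKM in the wt and 0.02, 0.01 and 0.69 FPKM in the null libraries. Axin2 was below both wt libraries in replicate 3, and other targets were ordered differently. Apcdd1, a membrane inhibitor of Wnt signaling, was at 19.5 and 22.7 FPKM in the wt and 3.42, 59.3 and 31.1 FPKM in the null libraries, highest in replicate 2 (log2 fold change -0.08, adjusted p = 0.971, edgeR). Ccnd1, encoding cyclin D1, was at 393 and 250 FPKM in the wt and 683, 832 and 117 FPKM in the null libraries, where replicate 3 was the lowest of all. Myc was at 34.5 and 13.0 FPKM in the wt and 51.4, 41.8 and 60.0 FPKM in the null libraries. Id2, an inhibitor of helix-loop-helix factors, was at 0.97 and 1.21 FPKM in the wt and 53.1, 9.85 and 10.6 FPKM in the null ones, giving a log2 fold change of 3.96 (adjusted p = 0.191, edgeR), or 2.54 without null replicate 1. Cd44, a hyaluronan receptor, had a log2 fold change of 1.32 (adjusted p = 0.216, edgeR), or 0.63 with the length offset.

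Cell type markers also differed between the null libraries. Of those named, Dcn, Lum, Epcam, Duoxa2, Tg and the leukocyte genes other than Cd68, Lck, Cd79a and Cd8a were chosen after their values were seen. Summed over 10 fibroblast and mesenchymal markers, FPKM came to 322 and 291 in wt replicates 1 and 2, against 1.72, 178 and 1478 in null replicates 1 to 3. Col1a1 was the most abundant of them in every library, and in replicate 3 Postn was at 102 FPKM and Dcn at 84.7 FPKM, against at most 0.13 FPKM in the others. Lum, of the same list, was near 0 throughout, at 0.14 and 0 FPKM in the wt and 0, 0 and 0.02 FPKM in the null libraries. Both Axin2 and Nkd1 ordered the null libraries as the mesenchymal sum did. Summed over 10 epithelial markers, FPKM was 1110 and 1786 in the wt and 14164, 706 and 1466 in the null libraries, and Epcam and Cdh1 were at 0 in null replicate 2. Most of the wt sums was Krt8, at 634 and 1104 FPKM, while Epcam was at 5.04 and 4.61 FPKM in the wt and 152, 0 and 59.6 FPKM in the null libraries. The median log2 fold change of the 10 was 3.64, and 0 of them had an unadjusted p under 0.05, against 12.4% higher and 6.07% lower among all genes. With the length offset 1 was higher (7.25% of all genes). Tcf7l1, like the epithelial sum, was highest in replicate 1 and lowest of the null libraries in replicate 2.

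The labels name thyroid epithelial cells. Summed over 12 follicular markers, FPKM was 15.3 and 20.6 in the wt and 35.2, 68.5 and 4.84 in the null libraries, most of it from Nkx2-1 or Pax8. Pax8, a thyroid transcription factor, was at 0.40 and 0.17 FPKM in the wt and 18.2, 12.8 and 2.56 FPKM in the null libraries (log2 fold change 4.75, unadjusted p = 0.00368, adjusted p = 0.18, edgeR). Nkx2-1 did not follow it, at 9.21 and 15.0 FPKM in the wt and 9.26, 34.8 and 0.26 FPKM in the null libraries (log2 fold change -0.33, adjusted p = 0.917, edgeR). Hhex was above both wt libraries only in null replicate 2 and Slc5a5 only in null replicate 1, each below both wt libraries in the other null libraries. Tg, the thyroid hormone precursor, was at 0.80 and 0.86 FPKM in the wt and 0.04, 0.51 and 0.34 FPKM in the null libraries, all below both wt libraries (log2 fold change -2.13, unadjusted p = 0.0712, adjusted p = 0.3, edgeR). Of the 5 follicular markers tested, 1 was higher (12.4% of all genes) and 0 lower (6.07%) at an unadjusted p under 0.05, and with the length offset 1 was higher (7.25%) and 1 lower (5.73%). Duoxa2 was at 0 in 4 libraries. Endothelial markers summed to 0.68 FPKM or less. A smaller share of cells of a type and less RNA per cell cannot be told apart in bulk samples, and the part of these markers in the values of the Wnt genes was not tested.

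**Figure D4:**
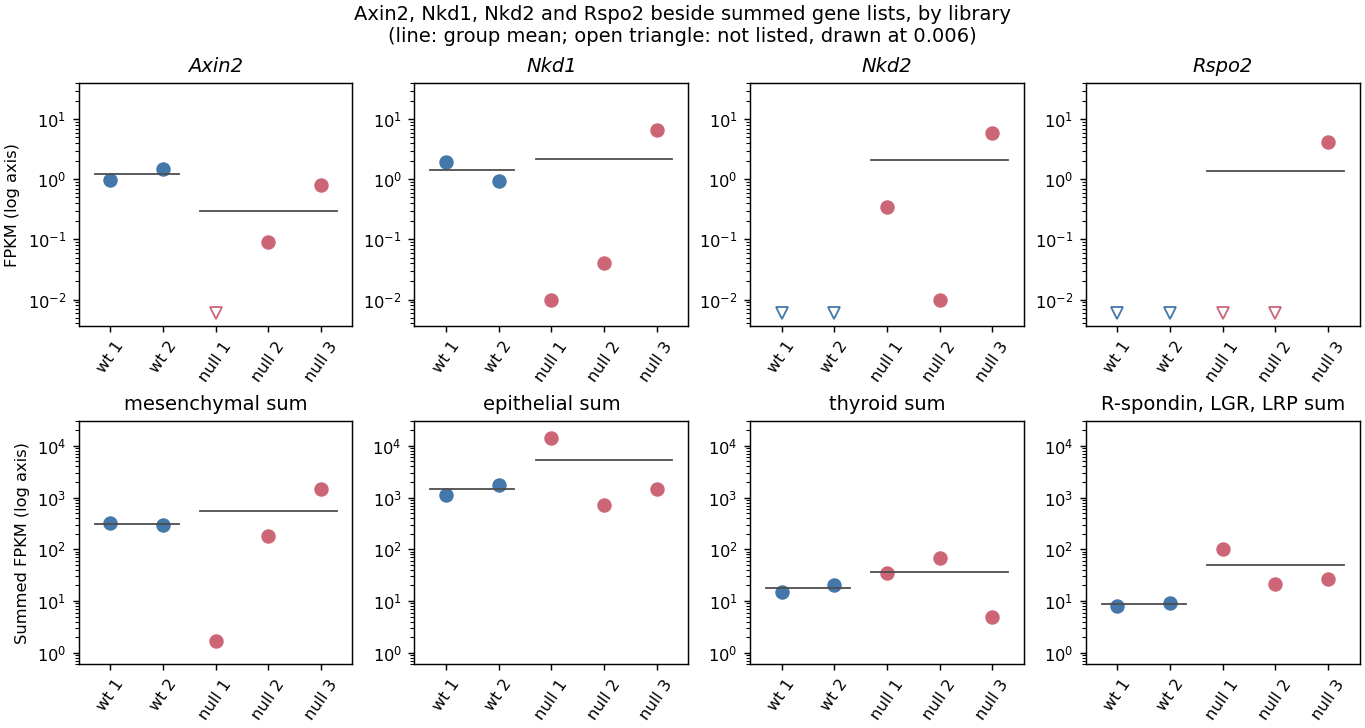
FPKM of Axin2, Nkd1, Nkd2 and Rspo2 (upper row) and summed FPKM of the mesenchymal, epithelial and thyroid markers and of the R-spondin, LGR and LRP genes (lower row) in each library, on log axes. Points are libraries (blue, wt; red, null), lines are group means and open triangles are unlisted. Null replicate 3 has the highest Nkd1, Nkd2, Rspo2 and mesenchymal sum, and null replicate 1 the highest epithelial sum.

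The genes whose profile over the 5 libraries was most like that of Axin2, among 8392 genes with a mean CPM of at least 10, were Col6a2, Adamts2 and Col5a3, which encode collagen chains and a procollagen-processing enzyme. Their root mean square difference from Axin2 was 0.49, 0.52 and 0.52 on centred log2 CPM, where the profile of Axin2 itself had a spread of 2.62. Col6a2 was at 52.9 and 62.9 FPKM in the wt and 0.69, 2.51 and 49.8 FPKM in the null libraries. Tcf7l1 had the highest mean FPKM of the factors, a rank set by null replicate 1, since Tcf7 was higher in every other library. The genes nearest to Tcf7l1 were Fam20c, a secretory pathway kinase (0.24), Pcsk6, a proprotein convertase (0.32), and Mvb12b (0.54). Fam20c was at 0.26 and 0.13 FPKM in the wt and 31.8, 3.64 and 7.30 FPKM in the null libraries. With 5 libraries, likeness of this kind is a description only.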

How the data were processed

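RNA-seq libraries (Illumina TruSeq) of 2 BVE-Ctnnb1wt and 3 BVE-Ctnnb1null samples were used, grouped by their labels. Aligner, counting program and genome build are not given in the sources used here. For each RefSeq transcript the authors deposited an estimated count and an FPKM value, from FPKM 0.01 upward. Both were summed per gene, and of 17923 genes, 17866 were named from RefSeq. Estimated counts were rounded and tested with edgeR 4.0.16 in R 4.3.3 (TMM, filterByExpr by group, quasi-likelihood test, Benjamini-Hochberg adjustment, threshold 0.05). The standard error is the absolute log2 fold change over the square root of F. Lower bounds use 3 counts per library and cover counting error only. Alternatives were DESeq2 1.42.0, limma 3.58.1 on log2(FPKM + 0.1, 0.01 or 1), other filters, no TMM factors, each library left out, a replicate block and, chosen after seeing the data, a length offset (a lowess curve per library). Scripts of the fits were tested on simulated data. Per list, up to 4 genes by mean FPKM and up to 2 by fold change (mean FPKM of at least 1) could be named. The genes and lists were chosen with earlier results of these data known. Transcript structures came from GENCODE on GRCm38 and promoters from RefSeq on GRCm38.p6; Lgr5 and Znrf3 had no promoter entry. The figures were drawn with matplotlib 3.10.9. A marker gene of the leukocyte list is not reported here.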

Additional observations from a re-analysis of the deposited data

How the results depend on the processing

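The number of genes past an adjusted p of 0.05 was 0 in each direction in edgeR, and rose to 1113 higher and 487 lower with DESeq2. It was 1, 1 and 1 higher and 5, 3 and 7 lower with limma on log2(FPKM + 0.1), log2(FPKM + 0.01) and log2(FPKM + 1), 4 lower with no filter on low counts and 1 lower with at least 10 counts in every library. Of the 10 genes, DESeq2 passed 3 (Lef1, adjusted p = 2e-06; Tcf7l1, adjusted p = 1.7e-05; Tcf7l2, adjusted p = 0.0367), and 0 passed under the other alternatives, leaving out each library included. The number of these genes lower at an unadjusted p under 0.05 was 1 with no filter (Lgr5) and 0 without null replicate 1 or 2. It was 2 without null replicate 3 and 2 with the replicate block (Axin2 and Nkd1 in both). The number higher ranged from 2 to 4. The matching shares of all genes are not given for these filters, left-out libraries or the block, so nothing is read from these counts. Where 1 wt library was left out, the lone library is assumed to vary like the null group. Leaving out each library moved Tcf7 between -0.081 (without wt replicate 2) and 0.39. Nkd1 reversed to 0.59 without TMM factors, and leaving out each library moved it between -6.49 (without null replicate 3) and 0.52 (without null replicate 1), being above 0 also without wt replicate 1 and without null replicate 2. The feedback targets' median reversed to -1.99, -3.28 and -0.54 with limma (2 genes) and to -2.88 with the replicate block. Leaving out each library, it lay between -5.33 (without null replicate 3) and 1.79. The factors' median of 4.08 was 3.12 without null replicate 1, 1.16 with at least 10 counts in every library (2 genes) and 1.34 with limma on log2(FPKM + 1). The length offset reversed the median of the degradation complex to -0.20. With no filter on low counts the median of the R-spondin and receptor list moved from 2.17 to 4.88 (8 genes in place of 5) and that of the other targets from 0.61 to 1.00 (22 in place of 15). The cause of these changes was not tested. The median over all genes was 0.21 with DESeq2, 0.87 without TMM factors, 0.61 with limma on log2(FPKM + 0.1) and 0.13 with the length offset. Of 252 alternative fold changes of 19 named genes, 236 kept direction and side of the threshold, 11 passed it and 5 reversed. Since 0 genes passed in the main edgeR fit, staying on that side says little about stability. The 236 include large moves, such as Nkd1 without null replicate 3, and Nkd1 under DESeq2, which gave it no adjusted p. The replicate numbers 1 and 2 mark no shared origin in the labels, and the correlation of wt 1 minus wt 2 with null 1 minus null 2 over 13240 genes was -0.10; with the number as a replicate block 0 genes passed, and Axin2 was at -6.18 and Nkd1 at -6.51.

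Depth leaves Lgr5, Sp5 and Rnf43 on at most 99 counts in any library, so that their values of 0 are limits of detection.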
